A study of Mus musculus with 8 samples.

Results

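The granzyme and perforin genes of the mouse were examined in CD8+ T cells sorted from MC38 tumors, with and without the histone demethylase LSD1. The 10 genes were taken by symbol from a table of 55335 genes: the granzyme genes *Gzma*, *Gzmb*, *Gzmc*, *Gzmd*, *Gzme*, *Gzmf*, *Gzmg*, *Gzmk* and *Gzmm*, and *Prf1*, which encodes perforin. All 10 passed the filter on low counts, *Gzmg* through its WT samples alone.

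Gene expression was measured by RNA-seq in 4 WT and 4 KO samples, named S1 to S4 and S5 to S8. All mice were of the C57BL/6 background, were 6 to 10 weeks old and carried loxP-flanked *Lsd1* (*Kdm1a*) alleles. WT samples came from Lsd1f/f littermates without Cre and pooled the cells of 2 mice each, whereas each KO sample came from 1 Cd4-Cre+Lsd1f/f mouse, so genotype and pooling cannot be told apart. Cd4-Cre is active in developing T cells before the CD4 and CD8 lineages separate, so the deletion also concerns the CD4+ T cells of the KO mice. MC38 is a colon carcinoma line of C57BL/6 origin. Tumors were taken on day 18 according to the protocol and on day 14 according to the design text. About 10000 to 20000 live T cells were sorted per sample, gated on CD45.2, TCRβ, CD8, CD44 and PD-1. A sorted population holds cells of several states, and in such bulk RNA fewer expressing cells and less RNA per cell cannot be told apart.

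Between 11657807 and 30295406 reads per sample were assigned to genes, so that 3 counts, the limit that a count of 0 allows, stood for 0.105 to 0.25 CPM, the unit of all levels here (counts scaled to the normalized library size). These limits cover counting error only. *Kdm1a*, the targeted gene, was at 42.6 to 47.1 CPM in WT and at 25.2 to 34.7 CPM in KO samples. Counts over the whole gene also include exons outside the deletion. CD8 T cell markers (*Cd3e*, *Cd8a*, *Cd8b1*, *Cd44*, *Pdcd1*, *Trac*, *Trbc2*) summed to 3400 to 4080 CPM in the WT group and 3180 to 3900 CPM in the KO group. Within this sum *Cd44* was called higher (log2 fold change 0.86, edgeR adjusted p = 0.000107), and *Cd8b1* (-0.39, 0.0158) had lower values in each KO sample without being called. The other 5 markers overlapped between the groups. The summed level of 10 macrophage markers was 258, 303, 771 and 348 CPM in S1 to S4 and 53.3 to 89.3 CPM in KO samples, with 7 of 10 called lower.

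Granzymes are serine proteases that cytotoxic lymphocytes store in secretory granules together with perforin. On contact with a target cell the granules are released, perforin opens the target membrane, and the granzymes enter and cleave their substrates. Granzyme B cleaves after aspartate and activates caspases, granzyme A is a tryptase with another route to cell death, and granzymes C to G are rodent relatives of granzyme B whose genes lie beside it. Granzymes C and F are themselves cytotoxic, and in mice these genes come on after *Gzmb* in strongly and repeatedly stimulated T cells.

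The genes of the cluster lie within 145 kb of chromosome 14, all on the minus strand. On GRCm38 the span runs from the end of *Gzme* to the start of *Gzmb*, chr14:56117626-56262260, in the order *Gzme*, *Gzmd*, *Gzmg*, *Gzmf*, *Gzmc*, *Gzmb*. *Gzmn*, between *Gzmg* and *Gzmf*, is no member and had 0 counts. *Gzma* (chr13:113093825-113100981) and *Gzmk* (chr13:113171608-113225908) are both on the minus strand of chromosome 13, and *Prf1* (chr10:61297833-61304680) and *Gzmm* (chr10:79689020-79695261) on the plus strand of chromosome 10. *Gzmc* to *Gzmg* are close copies of each other. The transcripts of these 5 genes were 78.3% to 95% identical over the 10 pairs, with *Gzmd* and *Gzme* at 95%, and 73.3% to 79% identical to that of *Gzmb*. Between cluster genes and the granzymes outside, transcript identity was 62.4% to 67.5%. *Prf1*, which is no granzyme gene, was 66.9% to 68.8% identical to the cluster genes by the same measure. Values in this range therefore do not by themselves show that genes are related.

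The 5 genes that were called lower in KO cells also resemble each other upstream. The 150 bases before the RefSeq start site are shown here (GRCm38.p6, minus strand, 5′ to 3′). Whether this sequence bears on their levels was not tested. Capitals mark the 3 runs that are identical in all of *Gzmc* to *Gzmg*. *Gzmb* is shown beside them because it lies in the same cluster and was not called.
Gzmc (chr14:56234658-56234807): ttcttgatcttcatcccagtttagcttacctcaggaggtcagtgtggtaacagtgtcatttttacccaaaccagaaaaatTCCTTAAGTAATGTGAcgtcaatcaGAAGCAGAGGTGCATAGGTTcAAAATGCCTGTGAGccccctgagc
Gzmf (chr14:56211408-56211557): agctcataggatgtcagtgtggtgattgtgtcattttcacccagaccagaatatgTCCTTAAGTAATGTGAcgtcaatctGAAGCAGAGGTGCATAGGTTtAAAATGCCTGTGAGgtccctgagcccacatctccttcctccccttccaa
Gzmg (chr14:56159580-56159729): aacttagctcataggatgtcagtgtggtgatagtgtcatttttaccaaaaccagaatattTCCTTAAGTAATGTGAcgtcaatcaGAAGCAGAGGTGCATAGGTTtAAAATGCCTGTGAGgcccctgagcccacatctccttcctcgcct
Gzmd (chr14:56132594-56132743): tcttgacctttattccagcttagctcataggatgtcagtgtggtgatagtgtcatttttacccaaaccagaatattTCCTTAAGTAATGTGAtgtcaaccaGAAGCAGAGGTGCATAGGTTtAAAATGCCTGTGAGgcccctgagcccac
Gzme (chr14:56120626-56120775): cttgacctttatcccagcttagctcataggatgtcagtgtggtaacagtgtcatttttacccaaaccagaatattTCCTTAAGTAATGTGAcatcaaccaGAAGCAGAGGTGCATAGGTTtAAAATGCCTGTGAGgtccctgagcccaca
Gzmb (chr14:56262335-56262484): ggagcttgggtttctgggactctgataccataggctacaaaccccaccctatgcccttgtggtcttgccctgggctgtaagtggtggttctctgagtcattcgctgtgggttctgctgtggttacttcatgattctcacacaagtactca

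The runs were 20, 16 and 14 bases long, lay in the same order in the 5 genes, and were found neither in the 250 bases upstream of *Gzmb* nor in those of any other of 32851 RefSeq promoters. Over 250 bases, the upstream sequences of *Gzmc* to *Gzmg* were 86% to 95.6% identical. *Gzmb* was 59.7% to 67.4% identical to them, within the 59.4% to 70.3% found between cluster genes and granzymes on other chromosomes. The window of *Prf1*, no granzyme gene, was 61.6% to 68.3% identical to those of the cluster genes. RefSeq and GENCODE placed the start of *Gzmb* 74 bases apart, and those of the other 5 at most 15 bases apart. For *Gzmk*, whose window gave the 59.4% above, the RefSeq start lay 44943 bases downstream of the GENCODE start.

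Motif letters were searched on both strands of the 250 bases upstream. The RUNX core TGTGGT was present in all 5 genes and in *Gzmb*, and in 14% of all promoters. Outside the cluster it was present in *Gzma*, *Gzmm* and *Prf1*, so it was not particular to the cluster. The cAMP response element TGACGTCA was present in *Gzmc*, *Gzmf* and *Gzmg* and in 1.55% of promoters. In these 3 genes its first letters are the last of the 16-base run. The AP-1 letters TGANTCA were present in *Gzmb* but in none of the 5 neighbours, against 6.75% of promoters. The letters ACAAAG (TCF1 and LEF1), GGTGTGA (T-box factors) and TTCNNNGAA (STAT5) were absent from these windows of all 6 cluster genes, and occurred in 16.5%, 3.33% and 7.02% of promoters. Among the members outside, ACAAAG and TTCNNNGAA were present in *Gzmm*, and GGTGTGA in *Gzmk*. These matches describe the letters of the windows and do not show binding.

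The comparison of KO with WT asked which granzyme genes differed in level between these bulk samples of tumor-infiltrating CD8+ T cells. *Gzmc*, *Gzmd*, *Gzme*, *Gzmf* and *Gzmg* were lower in KO cells, whereas *Gzmb*, the 3 granzyme genes on other chromosomes and *Prf1* were not called. Of the 10 genes, 5 were called lower and 0 higher. A call required a fold change over 1.5 and a Benjamini-Hochberg adjusted p below 0.01 in edgeR's quasi-likelihood test across 15378 genes. Over all genes tested, 1.99% were called lower and 2.91% higher. In the cluster 5 of 6 genes were called lower, with a median log2 fold change of -2.56, and outside it 0 of 4, with a median of -0.02. The median over all genes tested was -0.01.

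**Figure D1:**
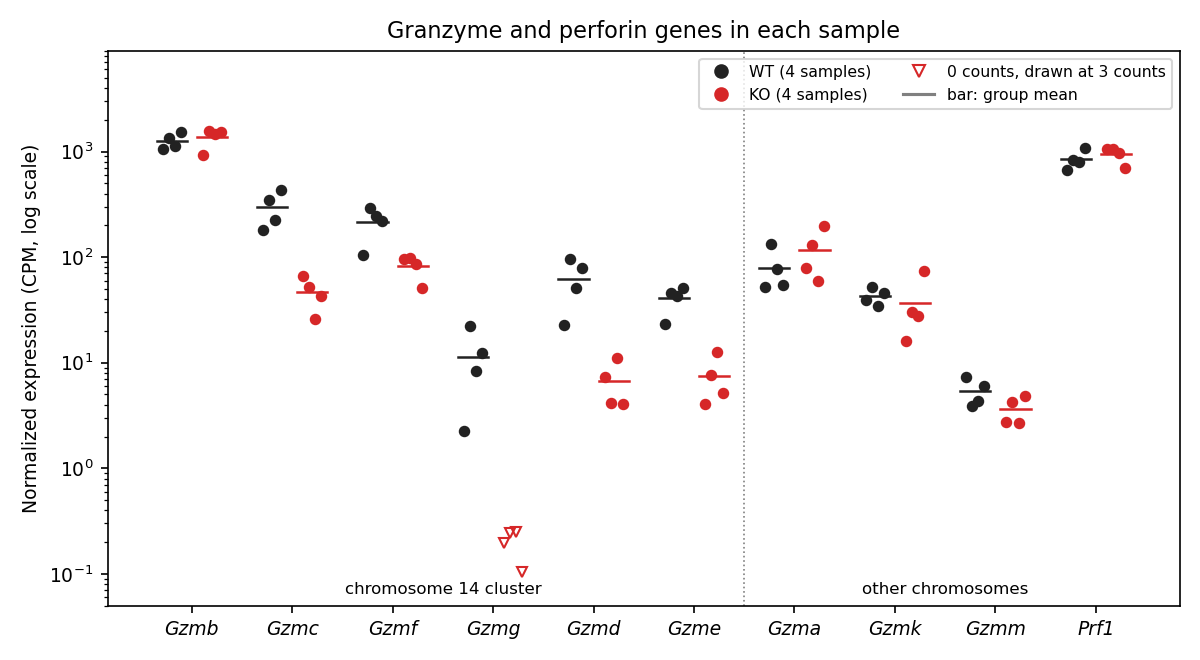
Normalized expression of the 10 genes in each of the 8 samples, in CPM on a log axis, with black points for WT, red points for KO, and bars for group means. Open triangles stand for 0 counts of *Gzmg* and are drawn at the level of 3 counts. The red points lie under the black ones for *Gzmc*, *Gzmf*, *Gzmg*, *Gzmd* and *Gzme*, and the groups overlap for the other 5 genes.

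*Gzmc* encodes granzyme C, a protease that can kill cells without granzyme B. It reached 180, 344, 224 and 430 CPM in the WT samples S1 to S4 and 66.4, 51.9, 25.8 and 42.8 CPM in S5 to S8. The groups did not overlap, and the highest KO sample stayed well under the lowest WT sample. With a WT mean of 295 ± 114 CPM (SD, n = 4) and a KO mean of 46.7 ± 17 CPM (SD, n = 4), the decrease was 6.3-fold (log2 fold change -2.65, SE 0.27, edgeR adjusted p = 5.23e-06).

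*Gzmd* encodes granzyme D and is the closest relative of *Gzme* in sequence. *Gzmd* stood at 22.6, 96.4, 51.5 and 79.2 CPM in the WT samples and at 7.34, 4.19, 11.1 and 4.07 CPM in the KO samples. S1 was the lowest WT sample for this gene and still exceeded the highest KO value. The log2 fold change was -3.25 (SE 0.39, edgeR adjusted p = 3.12e-05), a 9.51-fold decrease.

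*Gzme*, which encodes granzyme E, was at 23.1, 46.2, 42.8 and 51 CPM in S1 to S4 and at 4.06, 7.66, 12.7 and 5.19 CPM in S5 to S8. Again the groups were separate and S1 was the lowest of the WT samples. The level fell 5.58-fold (log2 fold change -2.48, SE 0.31, edgeR adjusted p = 5.31e-05).

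*Gzmf*, which encodes granzyme F, showed the smallest decrease of the 5. It was at 105, 289, 244 and 219 CPM in WT and at 95.5, 97.7, 86.8 and 51.5 CPM in KO samples. The groups touched closely, because S1 was barely above the highest KO samples S5 and S6. The decrease was 2.59-fold (log2 fold change -1.37, SE 0.24, edgeR adjusted p = 0.00118). When the test asked for a fold change significantly over 1.5 (edgeR glmTreat), *Gzmf* was no longer called, with an adjusted p of 0.0199.

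*Gzmg*, which encodes granzyme G, was not detected in KO cells. It had 39, 412, 103 and 151 counts in S1 to S4, or 2.26, 22.4, 8.39 and 12.4 CPM, and 0 counts in each of S5 to S8. Because its WT samples alone took it past the filter, its test and call add nothing beyond these counts. With a filter of at least 5 CPM in at least 4 samples *Gzmg* was not tested, and 4 members were called lower. Set against 3 counts per KO library, the WT mean (11.4 ± 8.46 CPM, SD, n = 4) was at least 57.3-fold higher (edgeR adjusted p = 2.71e-05). S1 was the lowest and S2 the highest WT sample, and their ratio was wider than for the other cluster genes. With *Gzmg* placed at this limit, the median of the cluster stays at -2.56 by construction, because *Gzmg* has the lowest value either way.

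*Gzmb*, the most abundant granzyme gene, was at 1050, 1350, 1140 and 1520 CPM in WT and at 918, 1580, 1460 and 1540 CPM in KO samples. S6 and S8 exceeded the WT range and S5 lay under it. The log2 fold change of 0.12 (SE 0.15, 95% confidence interval -0.18 to 0.42, edgeR adjusted p = 0.695) did not pass the test.

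**Figure D2:**
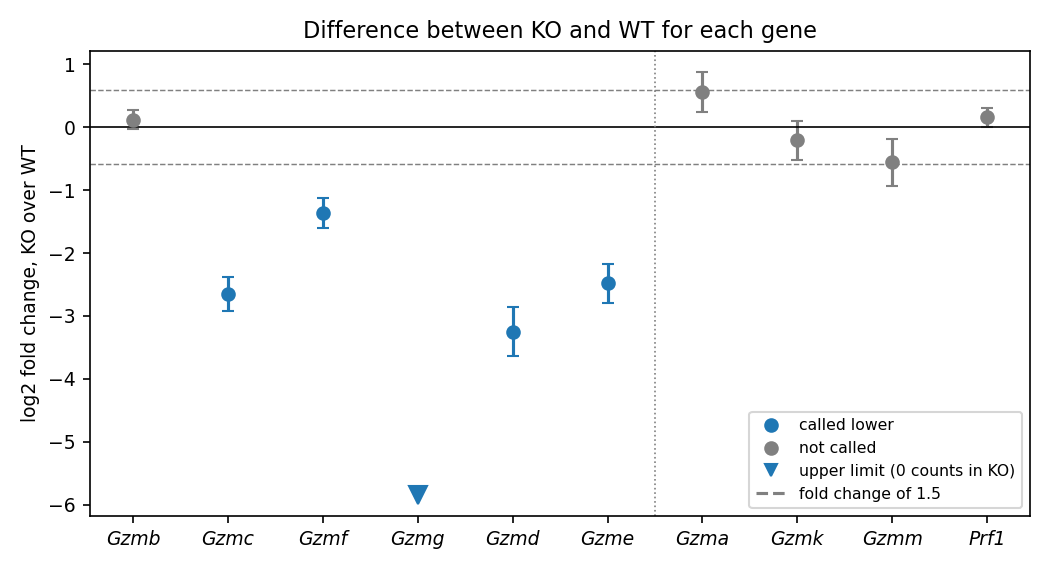
Log2 fold change of KO over WT for each of the 10 genes, with error bars for the standard error of the edgeR fit and dashed lines at a fold change of 1.5 in either direction. The triangle for *Gzmg* marks the upper limit set by 3 counts per KO library, -5.84. The 5 called genes lie between -1.37 and this limit, and *Gzmb*, *Gzma*, *Gzmk*, *Gzmm* and *Prf1* lie between -0.56 and 0.56.

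Outside the cluster, *Gzma*, which encodes the tryptase granzyme A, was at 52.2, 133, 76.9 and 55 CPM in S1 to S4 and at 78.1, 131, 59.4 and 197 CPM in S5 to S8. The samples of each genotype were spread over more than the difference between the groups, and S8 was the highest. The log2 fold change was 0.56 (SE 0.32, 95% confidence interval -0.07 to 1.19, edgeR adjusted p = 0.304), so a rise above 1.5-fold could not be told from none. Single samples moved this value: it was 0.18 without S8 and 0.93 without S2.

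*Gzmk* encodes granzyme K, another tryptase and a marker of less differentiated memory-like CD8 T cells. It was at 39.1, 52.4, 34.4 and 45.6 CPM in WT and at 16.2, 30.4, 27.8 and 73.2 CPM in KO samples. S5, S6 and S7 lay under the WT range and S8 above it. The log2 fold change was -0.21 (SE 0.31, edgeR adjusted p = 0.761), and -0.79 without S8. In the GENCODE annotation *Gzmk* overlaps *Esm1* on the other strand, to which 880 reads were assigned in all, or 15.5% of the *Gzmk* total.

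*Gzmm*, the gene of granzyme M, was the lowest of the outside genes at 7.25, 3.86, 4.32 and 6.01 CPM in WT and 2.75, 4.27, 2.67 and 4.81 CPM in KO samples. The ranges overlapped. The log2 fold change was -0.56 (SE 0.38, 95% confidence interval -1.33 to 0.21, edgeR adjusted p = 0.416).

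*Prf1* was at 662, 822, 799 and 1090 CPM in S1 to S4 and at 1050, 1060, 977 and 696 CPM in S5 to S8. The 2 groups covered almost the same range. The log2 fold change of 0.16 (SE 0.15, 95% confidence interval -0.13 to 0.45, edgeR adjusted p = 0.553) did not pass the test, and the interval leaves out a fold change of 1.5 in either direction.

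For the 5 called genes the KO range ended under the WT range, and for none did it begin above. Over all genes tested, 8.28% were separated with KO lower and 8.99% with KO higher. The exact two-sided permutation test on log2 CPM gave p = 0.0286 for each of the 5, the smallest that 70 arrangements of 4 against 4 samples allow. It gave 0.714 for *Gzmb*, 0.429 for *Prf1*, 0.257 for *Gzma*, 0.429 for *Gzmk* and 0.143 for *Gzmm*.

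A call for *Gzmc* and none for *Gzmb* does not itself show that the 2 genes differ, so the log2 ratio of each gene to *Gzmb* was taken within each sample. The ratio of *Gzmc* to *Gzmb* was -2.54, -1.98, -2.34 and -1.82 in the WT samples and -3.79, -4.92, -5.81 and -5.16 in the KO samples, a difference of -2.75. The ratios of *Gzmd*, *Gzme* and *Gzmg* differed by -3.24, -2.61 and -6.23, the last depending on the prior count because *Gzmg* had no reads in KO cells. For these 4 genes the groups did not overlap (exact two-sided permutation p = 0.0286 each), and no ratio could reach less. After Benjamini-Hochberg adjustment over the 9 ratios the exact test gave p = 0.0643, so none passed 0.05.

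The ratio of *Gzmf* to *Gzmb* was -3.31, -2.23, -2.22 and -2.79 in WT and -3.26, -4.01, -4.07 and -4.9 in KO samples. S5 lay inside the WT range, and the difference of -1.42 gave an exact two-sided permutation p = 0.0571 (adjusted over the 9 ratios 0.103). For *Prf1* the difference in this ratio was 0.06, for *Gzma* 0.4, for *Gzmk* -0.52 and for *Gzmm* -0.65. The groups overlapped in all 4 (exact two-sided permutation p from 0.0857 to 0.771).

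Levels of different genes were compared per length, as RPKM (here CPM divided by exon length in kilobases). In WT cells the order by mean was *Gzmb* (880 RPKM), *Gzmc* (330), *Prf1* (327), *Gzmf* (233), *Gzma* (78.7), *Gzmd* (64.7), *Gzme* (44.5), *Gzmk* (30.9), *Gzmg* (12.5) and *Gzmm* (3.64). *Gzmb* and *Gzmc* were separated in every sample, as were *Gzmk* and *Gzmg*, and all other neighbours in this order overlapped. In KO cells the order was *Gzmb* (957 RPKM), *Prf1* (366), *Gzma* (116), *Gzmf* (90.1), *Gzmc* (52.2), *Gzmk* (26.6), *Gzme* (8.09), *Gzmd* (6.92), *Gzmm* (2.46) and *Gzmg*, which was at 0. There *Gzma* to *Gzmd* formed a chain of overlapping neighbours, while *Gzmb*, *Prf1* and *Gzma* were separated from each other.

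*Gzmc* thus stood next to *Gzmb* in WT cells and below *Gzma* and *Gzmf* by mean in KO cells. As a share of the summed RPKM of the 9 granzyme genes, *Gzmb* made up 61.7%, 47.4%, 52% and 52.4% in the WT samples and 69.4%, 76.8%, 81.6% and 74.6% in the KO samples. *Gzmc* to *Gzmg* together made up 31.1%, 44%, 41.1% and 43.1% in WT and 20.7%, 12.4%, 11.9% and 7.91% in KO samples. Neither share overlapped between genotypes. Both are parts of the same total, so they are not separate results, and the level of *Gzmb* itself overlapped between genotypes. The granzymes on other chromosomes made up 4.53% to 8.66% in WT cells and 6.49% to 17.5% in KO cells, with S8 the highest.

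The summed level was compared as well as its make-up. The granzyme RPKM summed to 1180, 1990, 1520 and 2020 in the WT samples and to 920, 1430, 1250 and 1440 in the KO samples, which overlap. The part of *Gzmc* to *Gzmg* was 367, 874, 626 and 871 RPKM in the WT samples. In the KO samples it was 190, 177, 149 and 114 RPKM. That the groups do not overlap for this part is no further result. Each of its genes was already separate between the groups, so their sum could not overlap.

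**Figure D3:**
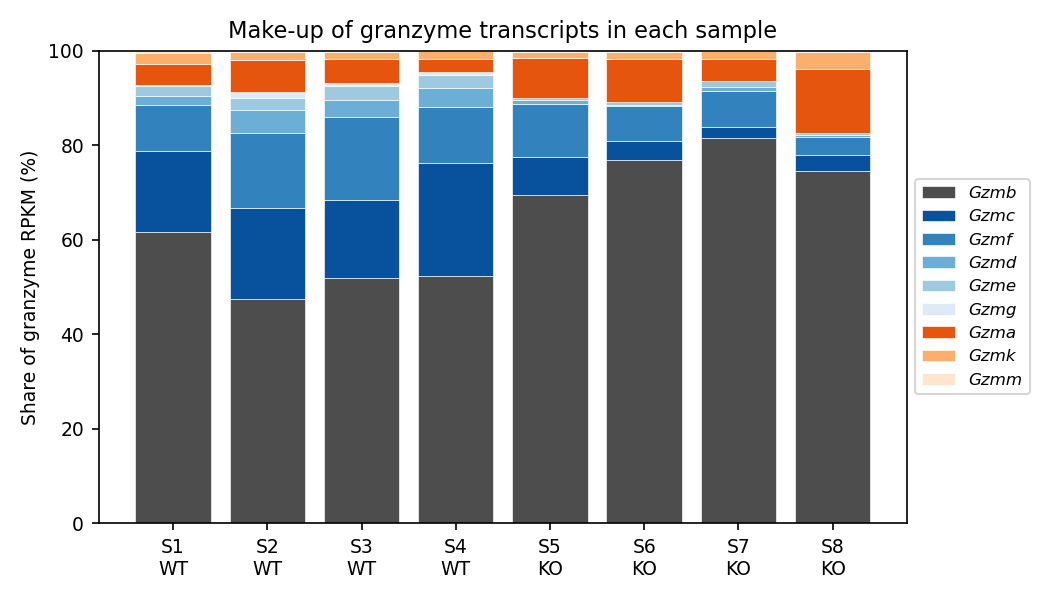
Share of each granzyme gene in the summed granzyme RPKM of each sample, in percent, with *Gzmb* in grey, *Gzmc* to *Gzmg* in blues and *Gzma*, *Gzmk* and *Gzmm* in oranges. The blue part covers 31.1% to 44% in the WT samples S1 to S4 and 7.91% to 20.7% in the KO samples S5 to S8.

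Because the cluster genes resemble each other, reads can match more than 1 of them. Of all words of 42 bases in a gene's transcripts, 8.56% were shared with another gene for *Gzmc*, 23.2% for *Gzmf*, 24.8% for *Gzmg*, 27.7% for *Gzmd* and 27.9% for *Gzme*. For *Gzmb* it was 0.573%, and for *Gzma*, *Gzmk*, *Gzmm* and *Prf1* 0%. How reads that fit several genes were counted is not given in the sources used here, so the split among *Gzmd*, *Gzme*, *Gzmf* and *Gzmg* is uncertain, whereas 91.4% of the words of *Gzmc* were its own. *Gzmf* overlaps *Gm4022* on the other strand, which received 7 reads in all.

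Within the 4 WT samples, S1 was the lowest for all 5 genes, and also for *Gzmb*, *Prf1* and *Gzma*, which were not called. The summed macrophage markers, which were also higher in WT, were at 258, 303, 771 and 348 CPM in S1 to S4, beside 180, 344, 224 and 430 CPM of *Gzmc*. S1 was the lowest in both, and S3 was the highest for the markers but lower than S2 and S4 for *Gzmc*. The part of these cells in the result was not tested. Without S3, as without any other sample, 5 members were called lower. Leaving out a sample cannot test the part of these cells, because the summed markers were higher in every WT than in every KO sample. The summed NK cell markers, another granzyme-expressing population, were at 45.6 to 54.4 CPM in WT and 29.5 to 52.1 CPM in KO samples, mostly from *Klre1* (log2 fold change -0.35, edgeR adjusted p = 0.186). *Klrb1c*, which encodes NK1.1, was at 0, 0.109, 0.407 and 1.32 CPM in WT and at 5.5, 2.42, 5.33 and 2.14 CPM in KO samples, higher in each KO sample but not called (edgeR adjusted p = 0.0338). *Ncr1* had group means of 0.068 CPM in WT and 0.39 CPM in KO cells. Mast cell and basophil markers summed to at most 2.63 CPM in WT and 3.39 CPM in KO samples, with *Fcer1a*, *Ms4a2*, *Cma1* and *Tpsb2* at 0 in all samples. CD4 T cell markers (*Cd4*, *Foxp3*) summed to 2.55 to 7.67 CPM in WT and 8.58 to 28.6 CPM in KO samples.

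The next question was whether the decrease extended beyond the granzyme genes on chromosome 14. Inside the span 7 other annotated genes lay between the members, and none had more than 7 counts over the 8 samples. Within 500 kb on either side, 27 of 61 genes reached 1 CPM in at least 2 samples, and 26 of these were tested. Of the 26, 1 was called lower and 0 higher, against 1.99% and 2.91% over all genes tested, and their median log2 fold change was 0.36. The KO samples were all above the WT samples for 8 of the 26 and all below for 1, against 8.99% and 8.28% over all genes. The called gene was *Gm5801*, a processed pseudogene at 13, 11.1, 11 and 11.6 CPM in the WT and 4.59, 4.03, 5.91 and 4.28 CPM in the KO samples (log2 fold change -1.31, SE 0.26, edgeR adjusted p = 0.00279), 179 kb from the centre of the cluster. The lowest adjusted p among the others was 0.0155, for *Parp4* (log2 fold change 0.46), followed by *Pspc1* (0.53), *Adcy4* (3.87, from a WT mean of 0.116 CPM) and *Mphosph8* (0.56).

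The log2 fold changes of the other neighbours did not pass the test either. On the *Gzme* side these were *Rec8*, *Ipo4*, *Tm9sf1*, *Gm49747*, *Tssk4*, *Mdp1*, *Nedd8*, *Gmpr2*, *Tinf2*, *Tgm1*, *Rabggta*, *Dhrs1*, *Nop9*, *Ltb4r2*, *Ltb4r1*, *Ripk3*, *Khnyn* and *Sdr39u1*. On the *Gzmb* side these were *Cenpj*, *Gm4032* and *Gm16973*, and *Rnf17* was under the filter. *Sdr39u1* had the lowest value of all neighbours that were not called, -0.61. The serine protease genes of mast cells and neutrophils in the same region (*Mcpt* genes, *Cma* genes and *Ctsg*) had 18 counts in all over 9 genes and 8 samples.

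**Figure D4:**
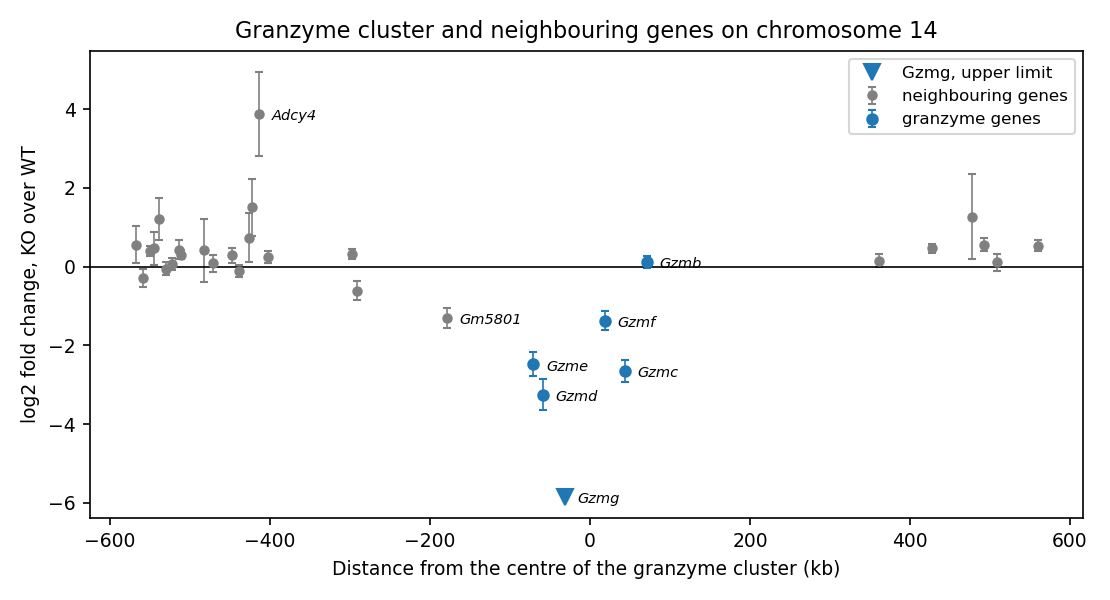
Log2 fold change of KO over WT against distance from the centre of the granzyme cluster in kilobases, with the 6 granzyme genes in blue and the 26 tested neighbours in grey, and error bars for the standard error. The triangle for *Gzmg* is an upper limit. Within the cluster all genes but *Gzmb* lie below -1, and of the neighbours *Gm5801* alone was called.

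Granzymes need partner proteins: dipeptidyl peptidase 1 (*Ctsc*) removes their propeptide, serglycin (*Srgn*) packs them, the mannose 6-phosphate receptors carry them to the granule, a fusion machinery releases them, and serpins inhibit them. Of 31 genes of this machinery that were tested, 6 were called lower and 1 higher, against 4.9% called in either direction over all genes. The median log2 fold change was -0.09. By role, 5 of 8 processing and storage genes, 1 of 7 granule proteins and death ligands, and 0 of 11 exocytosis genes were called lower. Of 5 inhibitors 1 was called higher. The list was chosen with earlier results of these data known.

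*Ctsc*, the activator of granzymes, was at 145, 164, 275 and 197 CPM in S1 to S4 and at 101, 109, 108 and 108 CPM in S5 to S8. It fell 1.84-fold (log2 fold change -0.88, SE 0.15, edgeR adjusted p = 0.00111). The groups did not overlap, and S3, the sample with the most macrophage marker RNA, was the highest. *Ctsh* and *Ctsl*, which encode lysosomal cathepsins H and L, fell with log2 fold changes of -2.86 and -1.97 (edgeR adjusted p = 0.00404 and 0.000202). *Ctsh* was also highest in S3, at 21.7 CPM against 4.4 to 8.97 CPM in the other WT samples, and its adjusted p rose to at most 0.0323 when S3, S4, S7 or S8 was left out. Macrophages express these cathepsins, and their part in these values was not tested.

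*Cst7*, which encodes cystatin F, an inhibitor of cathepsins C, H and L in cytotoxic cells, was at 83.2, 109, 85.3 and 111 CPM in WT and at 44.9, 50.4, 53.8 and 37.8 CPM in KO samples. Its fall was 2.08-fold (log2 fold change -1.06, SE 0.14, edgeR adjusted p = 8.12e-05). The part of macrophage RNA in this fall was not tested. *Igf2r*, the large mannose 6-phosphate receptor, fell with a log2 fold change of -0.79 (edgeR adjusted p = 0.000108), while the small receptor *M6pr* had a value of 0.01. *Lamp1*, a granule membrane protein also known as CD107a, had a log2 fold change of -0.6 (edgeR adjusted p = 0.00493), just past the threshold of 1.5-fold. Its call was lost without any 1 of S2, S3, S4, S5, S7 or S8, with an adjusted p of at most 0.0233 or a smaller fold change.

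The only machinery gene that rose was *Serpinb1a*, a serpin that inhibits neutrophil-type serine proteases. It was at 2.67, 1.25, 2.93 and 1.32 CPM in WT and 9.76, 10.1, 18.5 and 18.2 CPM in KO samples, a 6.93-fold increase (log2 fold change 2.79, SE 0.37, edgeR adjusted p = 7.62e-05). *Serpinb9*, the inhibitor of granzyme B, had a log2 fold change of 0.39 and an adjusted p of 0.0435 (edgeR), and was not called.

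The 6 machinery genes with the highest mean per length were *Nkg7* (667 RPKM), *Ctsw* (193), *Calr* (162), *Srgn* (148), *Serpinb6b* (134) and *Serpinb9* (125), and none of them was called. Their log2 fold changes were -0.1, -0.03, -0.19, 0.14, 0.03 and 0.39. *Nkg7* encodes a granule membrane protein needed for degranulation, and calreticulin (*Calr*) binds perforin. Of the genes for vesicle docking and fusion, *Rab27a* had the lowest adjusted p at 0.11 (log2 fold change -0.28, edgeR), and *Unc13d* and *Stx11* were at -0.04 and 0.15.

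**Figure D5:**
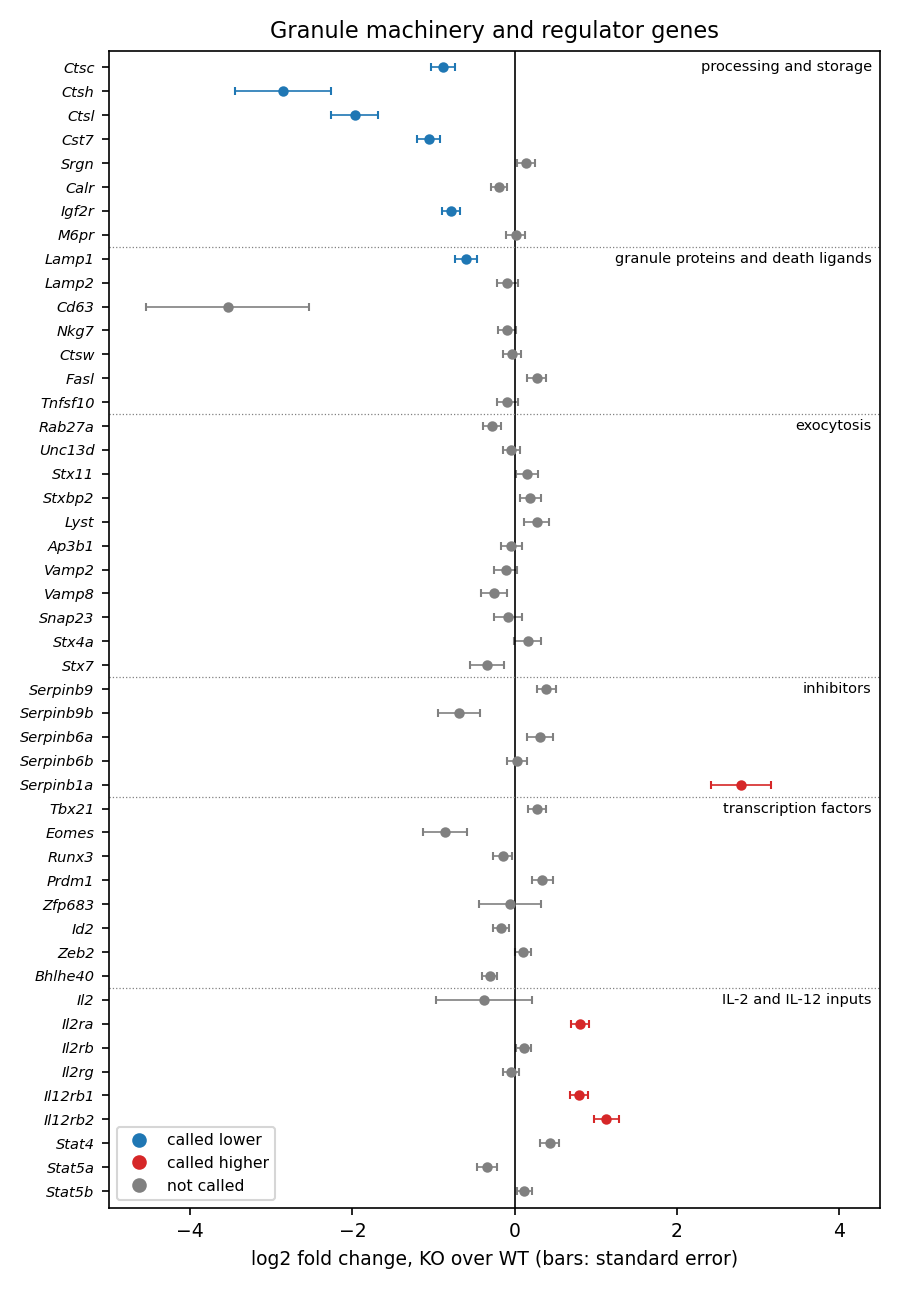
Log2 fold change of KO over WT, with bars for the standard error, for 31 genes of the cytotoxic granule machinery and 17 regulator genes, grouped by role. Blue marks genes called lower, red genes called higher and grey genes not called. The called genes are *Ctsc*, *Ctsh*, *Ctsl*, *Cst7*, *Igf2r* and *Lamp1* on the lower side and *Serpinb1a*, *Il2ra*, *Il12rb1* and *Il12rb2* on the higher side.

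Granzyme genes are switched on by T-box factors, RUNX3, BLIMP-1 (*Prdm1*) and by signals from IL-2 and IL-12. Of 17 listed regulator genes, which also include other effector T cell factors, 3 were called higher and 0 lower, against 2.91% and 1.99% over all genes tested. Their median log2 fold change was 0.1. This list, too, was chosen with earlier results of these data known. *Il12rb2*, the signalling chain of the IL-12 receptor, was at 239, 212, 237 and 259 CPM in S1 to S4 and at 511, 533, 672 and 354 CPM in S5 to S8 (log2 fold change 1.13, SE 0.15, edgeR adjusted p = 6.76e-05). *Il2ra*, which encodes the high-affinity chain CD25, and *Il12rb1*, the shared chain, rose with log2 fold changes of 0.8 and 0.79 (edgeR adjusted p = 0.000132 and 0.000186). For all 3 genes the groups did not overlap, as for 8.99% of all genes with KO higher. *Stat4* was also higher in each KO sample (log2 fold change 0.43, edgeR adjusted p = 0.0218). *Stat5a* (-0.34, 0.077) and *Bhlhe40* were lower in each, as 8.28% of all genes were. None of these was called.

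None of the 8 transcription factors was called. *Eomes*, a T-box factor, was at 46.2 to 63.4 CPM in WT and at 16.3, 31.8, 19.4 and 52.4 CPM in S5 to S8 (log2 fold change -0.86, edgeR adjusted p = 0.0477). As for *Gzmk*, S8 was the highest KO sample. *Tbx21*, which encodes T-bet, had a log2 fold change of 0.28 (edgeR adjusted p = 0.11), *Prdm1* of 0.34 (0.107), *Runx3* of -0.15 (0.486) and *Bhlhe40* of -0.31 (0.0401).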

How the data were processed

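RNA-seq raw counts per gene for 8 samples, as deposited by the authors, were used. The authors aligned paired reads from rRNA-depleted, directional libraries to GRCm38 with STAR and counted them over GENCODE vM23 genes with featureCounts. The strand and multimapping settings are not given in the sources used here. The columns are numbered Sample 1 to 8. A legend of the study assigns S1 to S4 to WT and S5 to S8 to KO, and the numbers of single replicates were not matched. All 12 pairs of samples of 1 genotype differed by more than sampling noise (lowest median chi-square per gene 4.9, against 0.455 for counting noise).

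Counts were tested with edgeR 4.0.16 in R 4.3.3: filterByExpr (15378 of 55335 genes kept), TMM factors, trended dispersions, glmQLFit and glmQLFTest. Standard errors were the fold change over the root of F. CPM used the TMM factors, and log2 CPM a prior count of 2. A call needed a fold change over 1.5 and an adjusted p below 0.01. Positions, lengths and transcripts were read from the GENCODE M21 annotation of GRCm38 (55154 gene IDs matched), and upstream sequences from RefSeq (GRCm38.p6). DESeq2 1.42.0 and the other alternatives are described in the closing section.

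The members, gene lists and tests were chosen with earlier results of these data known. Named were all 10 members, the called genes of the lists, the 6 machinery genes of highest mean RPKM, the neighbours reaching 1 CPM in 2 samples, *Kdm1a*, and the 5 genes most correlated with *Gzmc*. *Vamp7* of the machinery list was not matched by symbol.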

Additional observations from a re-analysis of the deposited data

Results flagged for a closer look

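In groups of 4 samples, 5 values lay apart from the other 3 by more than the critical share of the group's range in Dixon's test (95% level). Over the 108 groups tested, 5.4 such values are expected from chance alone. The members held 1 of them. *Gzmb* in S5 was at 9.84 log2 CPM against 10.5 to 10.6 in the other KO samples, a gap of 0.855 of the range. S5 was also below the other KO samples for *Ctsc*, at 6.66 log2 CPM (gap share 0.849). S1 was below the other WT samples for *Lamp1*, at 6.04 log2 CPM (0.887), and for *Tssk4*, a neighbour of the cluster, at -0.285 (0.886). *Rnf17* had counts in S3 alone among the WT samples (share 1).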

How the results depend on the processing

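*Gzmc*, *Gzmd* and *Gzme* were called lower in each of 17 alternatives and *Gzmg* in the 16 in which it was tested, which vary the scaling, the filter, the test, the thresholds, GC content and the sample left out. *Gzmf* was called in 16 of 17 and missed the threshold with glmTreat against a fold change of 1.5 (log2 fold change -1.37, adjusted p 0.0199). With 1 sample left out at a time, 5 members were called lower each time, and log2 fold changes ranged from -2.87 to -2.42 for *Gzmc*, -3.59 to -2.95 for *Gzmd*, -2.86 to -2.28 for *Gzme* and -1.6 to -1.2 for *Gzmf*. *Gzmb*, *Gzma*, *Gzmk*, *Gzmm* and *Prf1* were called in none. Machinery genes called numbered 2 with glmTreat against 7, and 5 to 8 with 1 sample left out. Regulator genes called numbered 1 with glmTreat against 3, and 3 to 4 with 1 sample left out.

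Over all genes, those called lower numbered 306, but 531 without a filter, 461 with DESeq2, 551 at an adjusted p of 0.05, 130 with glmTreat and 199 without S2. Those called higher numbered 447, but 695 at 0.05 and 165 with glmTreat. Without a filter the fit gave all genes 1 common spread (prior degrees of freedom infinite, against 10.5), which makes its p-values too small: *Gzma*, for which the fold change stayed under 1.5, then had an adjusted p of 0.000188.

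The groups did not overlap for 4 to 5 of the 9 ratios to *Gzmb* with 1 sample left out. The ratio of *Gzmc* lost its exact permutation p of 0.0286 without S4 (difference -2.64, p = 0.0571), and *Gzmm* without S2 (-0.83), *Gzmf* without S5 (-1.69) and *Gzmk* without S8 (-0.86) then reached p = 0.0286, the smallest that 3 against 4 samples allow in the exact test. The edgeR bias-adjusted fit and the library-size scaling of single levels were added after seeing the data. No paired analysis was possible because the columns of the count table carry no replicate numbers.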

Other observations

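Over the 8 samples, the 5 genes outside the family whose log2 CPM most resembled that of *Gzmc* were *Vars* (Pearson r 0.987), *2900026A02Rik* (0.978), *Irf8* (0.976), *Ccr7* (0.975) and *Tnfrsf4* (0.974). They were picked for this from all genes with a mean log2 CPM above 2, and all the points share the genotype contrast, so the values are a description. After the genotype means were taken out, r was 0.941, 0.805, 0.841, 0.804 and 0.833. *Irf8* encodes a transcription factor, *Ccr7* a chemokine receptor of lymph node homing and *Tnfrsf4* the costimulatory receptor OX40. *Vars* encodes valyl-tRNA synthetase and, with a log2 fold change of -0.56 (SE 0.11, edgeR adjusted p = 0.00243), missed the fold threshold, whereas the log2 fold changes of the other genes were -4.25, -0.74, -0.9 and -1.02, all called lower.

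Among the members, r with *Gzmc* was 0.957 for *Gzmg*, 0.896 for *Gzmd*, 0.857 for *Gzmf* and 0.841 for *Gzme*. Within genotypes it was 0.579, 0.29, 0.471 and -0.147, over the same 8 samples. For *Prf1* it was -0.102 across and 0.572 within genotypes, and for *Gzmb* -0.161 and 0.0418.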
